A study of Rattus norvegicus with 96 samples.

Results

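The ventral tegmental area (VTA) of female rats given nicotine (NIC) was compared with the VTA of female rats given saline (SAL). The 16 libraries are those whose names carry the region code of the VTA and the box of the female cohort; the labels put animals 1 to 8 in the NIC group and animals 9 to 16 in the SAL group, so 8 NIC and 8 SAL libraries of 96 in the series were compared. Each library is bulk RNA from hand-dissected VTA of 1 rat, sequenced as paired-end reads. The rats, treated in early adulthood per the labels, were F1 progeny of the inbred strains F344 and BN, and per the study's methods both reciprocal crosses were spread evenly over the groups. The NIC rats received 0.4 mg/kg nicotine and the SAL rats 1.0 ml/kg saline, once a day for 4 days, and the labels give day 17 for the harvest, so the tissue was taken long after the last injection. The comparison asks whether VTA expression still differed between NIC and SAL females at that time. The same rats also gave nucleus accumbens (NAc) core and shell, and males were treated alike.

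The VTA is a midbrain nucleus whose dopamine neurons project to the NAc. Nicotine binds nicotinic acetylcholine receptors on these neurons and on their inputs, which raises dopamine release, and repeated injections can leave a locomotor response that outlasts the drug. The VTA lies at the base of the midbrain and is small, so a dissected piece can hold varying amounts of neighboring nuclei, ventral meninges and vessels. In bulk tissue, fewer cells of a type and less RNA per cell cannot be told apart, which applies to each of the cell type markers below.

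The 16 libraries held 16066218 to 23547790 estimated counts, 19372158 to 23547790 in NIC and 16066218 to 20303597 in SAL, and 16987 to 17148 genes with a count. Levels are given as CPM, counts scaled to a common library total after trimmed mean of M values (TMM) scaling; they are not scaled to transcript length, so they compare libraries and not genes. Of 17637 genes in the table, 16879 passed the count filter and were tested with edgeR's quasi-likelihood test. The labels name a prep batch for each library. NIC libraries 1 and 2 were of batch G, 4 of H, and 5 and 6 of I, which hold no SAL library, and SAL libraries 11, 12, 15 and 16 were of batch K, which holds no NIC library. Only batch J (NIC 7 and 8, SAL 9 and 10) and batch L (NIC 3, SAL 13 and 14) hold both treatments, so in the remaining 9 libraries treatment and batch cannot be told apart.

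Dopamine neuron genes set 1 NIC library apart from the rest. Th, tyrosine hydroxylase, the rate-limiting enzyme of dopamine synthesis, was at 17.9 CPM in NIC 2, against 318.6 to 854.5 CPM in the other NIC libraries and 464.7 to 890.3 CPM in SAL. Slc6a3, the dopamine transporter, was at 22.7 CPM in NIC 2, at 408.5 to 934.2 CPM in the other NIC libraries and at 554.9 to 1085 CPM in SAL. In female NAc, where dopamine cell bodies are not found, Th was at 0.765 to 3.90 CPM and Slc6a3 under 1 CPM, so NIC 2 held dopamine neuron transcripts above the NAc level and far below its own group. The summed CPM of 9 dopamine neuron genes was 6.49% of the SAL median in NIC 2, 54.2% in NIC 1 and 49.8% in NIC 7, and 71.2% to 113.6% in the other NIC libraries.

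Markers of neighboring tissue differed between libraries in both groups. NIC 2 had the highest sum of cortical and hippocampal projection neuron genes, 1407 CPM against 193.7 to 583.5 CPM in the other 15 libraries, and of choroid plexus genes, 2758 CPM against at most 121.2 CPM in the other NIC libraries. SAL 16 also had high choroid plexus genes, at 957.9 CPM. NIC 1 and NIC 8 had the highest glycinergic and hindbrain genes, 51.6 and 63.5 CPM against 7.59 to 18.7 CPM elsewhere, led by Slc6a5, the neuronal glycine transporter.

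Hypothalamic peptide genes were high in 3 NIC libraries and in no SAL library. The summed CPM of 4 such genes was 209.0 in NIC 7, 29.8 in NIC 4 and 23.9 in NIC 6, and 3.79 to 6.99 in the other 13 libraries. Pmch, the precursor of melanin-concentrating hormone, was at 193.1 CPM in NIC 7 and 19.6 CPM in NIC 6, and at 1.02 to 2.93 CPM in the other 14 libraries. Thalamic genes were high in NIC 2 and SAL 12, at 240.8 and 248.4 CPM, against 38.9 to 104.0 CPM in the rest.

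Meningeal fibroblasts are the collagen-making cells of the brain's coverings. The sum of their marker genes was 355.3, 201.6 and 336.9 CPM in NIC 2, 6 and 8, 1297 to 2208 CPM in the other NIC libraries and 940.7 to 2859 CPM in SAL, where SAL 12 was highest. The 3 low NIC libraries came from 3 different prep batches, G, I and J. All 12 meningeal genes that were tested had a lower mean in NIC, so this marker level stands beside the vascular and immune results below.

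**Figure D1:**
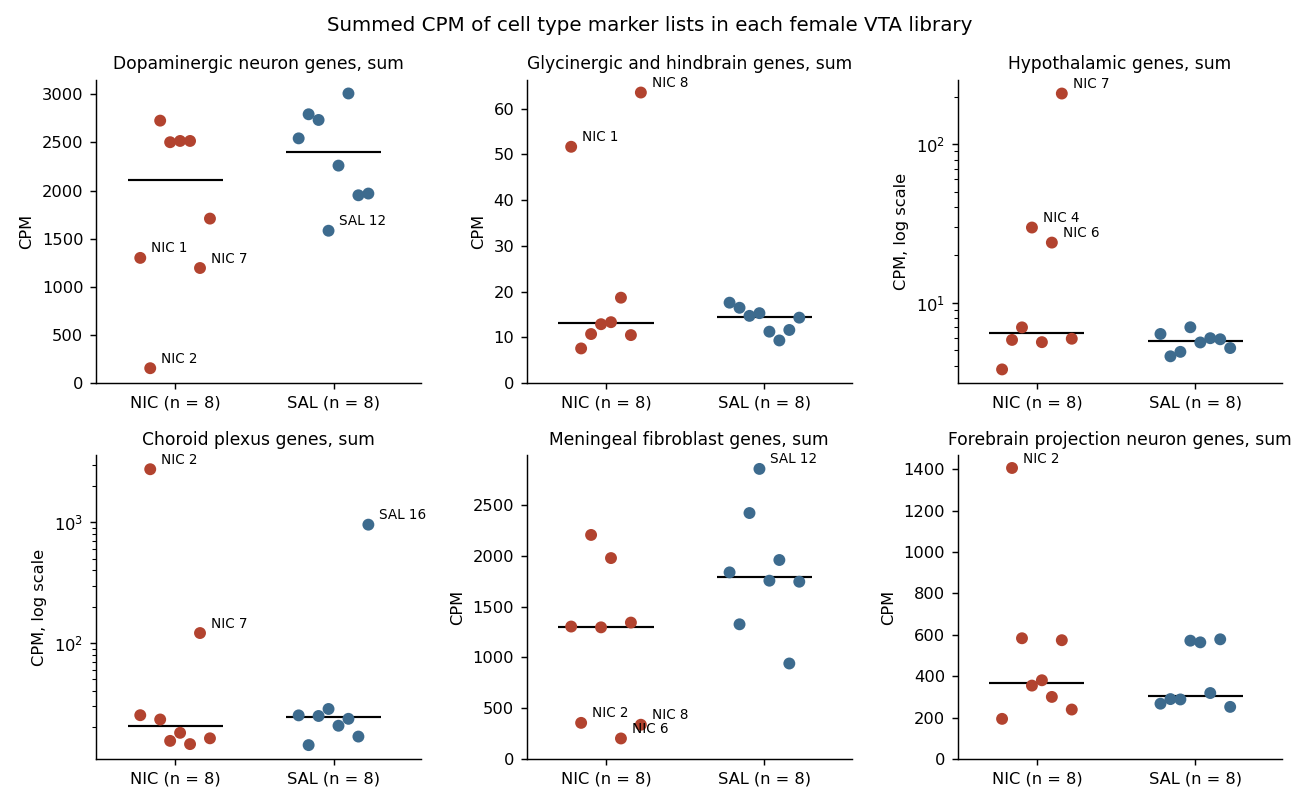
Summed CPM of 6 marker lists in each female VTA library (y axis, CPM, on a log scale for hypothalamic and choroid plexus genes), NIC in red and SAL in blue, with a horizontal line at each group's median. NIC 2 is lowest in dopamine neuron genes at 155.8 CPM and highest in forebrain projection neuron and choroid plexus genes, and NIC 2, 6 and 8 are lowest in meningeal fibroblast genes.

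No gene passed an adjusted p under 0.05 in edgeR's quasi-likelihood test, where the lowest Benjamini-Hochberg adjusted p was 0.390. At an unadjusted p under 0.05, 1559 of 16879 genes (9.24%) differed, 682 higher (4.04%) and 877 lower (5.20%) in NIC. A stricter unadjusted threshold of 0.01 left 269 genes, and one of 0.001 left 12. The differences were small, with a median absolute log2 fold change of 0.32 over the 1559 genes, and 140 of them differed more than 2-fold, of which 39 had a mean of at least 1 CPM. The CPM of NIC and SAL did not overlap for 6 genes (0.0355%). Without any group difference, each gene would do so with a probability of 0.0001554, so some of the 6 may do so by chance. "Higher" and "lower" are used below for genes at an unadjusted p under 0.05, and since none passed the adjusted threshold each such gene may be among those that pass by chance.

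Without NIC 2, 1267 genes (7.51%) were at an unadjusted p under 0.05, 564 higher and 703 lower, and the lowest edgeR adjusted p was 0.648. Of the 1559 genes, 1043 were also under 0.05 without NIC 2 and 1554 kept their sign. With prep batch as a covariate, 295 genes (1.75%) were under 0.05, 181 higher and 114 lower, and 125 of the 1559 genes were among them with the same sign. In that fit NIC 2 and the other libraries of single-treatment batches carry no weight for the treatment effect, so it rests on the 3 NIC and 4 SAL libraries of batches J and L. Of all 1559 genes, 1530 kept their sign with batch as a covariate.

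Among the genes lower in NIC, the smallest p belonged to LOC100911730, a locus on chromosome 1 without a gene name, and to Tnfrsf26, a member of the tumor necrosis factor receptor superfamily. LOC100911730 was at 32.9 to 63.9 CPM in NIC (median 54.3) and 67.2 to 99.1 CPM in SAL (median 84.0), which is a log2 fold change of -0.66 (SE 0.121, edgeR adjusted p = 0.390). Tnfrsf26 was at 0.832 to 1.67 CPM in NIC (median 1.43) and 2.06 to 4.62 CPM in SAL (median 2.46), that is, -1.01 on the log2 scale with an SE of 0.187. For both genes every NIC library lay below every SAL library, which fixes the exact permutation p at 0.0001554, the smallest value for these groups. Both genes were picked for a small p in the same libraries, so this value is no separate support. The SAL value of Tnfrsf26 that stands highest is that of SAL 12.

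The next genes lower in NIC were Sft2d2, a vesicle transport protein, Actn4, an actin crosslinker, and Lamc3 and Lama4, laminin chains of basement membranes. Sft2d2 was at 14.1 to 20.6 CPM in NIC and 19.5 to 26.4 CPM in SAL, that is, -0.40 on the log2 scale with an SE of 0.0938. Actn4 was at 164.8 to 192.8 CPM in NIC and 186.9 to 255.7 CPM in SAL, a log2 fold change of -0.24. For Sft2d2, 5 of 8 NIC libraries lay below every SAL library, and for Actn4 6 of 8 did. Sts, steroid sulfatase, Tie1, an endothelial receptor kinase, Gsap, the gamma-secretase activating protein, and Pkdcc, a secreted kinase, completed the 10 lower genes of smallest p, with log2 fold changes of -0.21, -0.39, -0.70 and -0.46.

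Among the genes higher in NIC, the smallest p belonged to Usp27x, an X-linked deubiquitinating enzyme. Its CPM was 14.2 to 16.6 in NIC (median 15.3) and 11.0 to 13.9 in SAL (median 12.0). Its log2 fold change was 0.31 with an SE of 0.0675. The groups did not overlap, which again fixes the exact permutation p at 0.0001554 and is no separate support. Ola1, an Obg-like ATPase, was at 72.8 to 93.1 CPM in NIC and 67.0 to 76.3 CPM in SAL, a log2 fold change of 0.22. Fstl5, a follistatin-like protein, was at 7.40 to 12.9 CPM in NIC and 4.85 to 8.56 CPM in SAL, a log2 fold change of 0.54. The lowest SAL value of Fstl5 was that of SAL 12, and 1 NIC library lay within the SAL range.

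Qpct, which forms pyroglutamate at the start of peptide hormones, was higher by 0.39 on the log2 scale, Jazf1, a zinc finger cofactor of transcription, by 0.42, and Mettl16, an RNA methyltransferase, by 0.18. Nop56, a core protein of the particles that guide ribosomal RNA modification, was higher by 0.20. Plppr5, a neuronal membrane protein of the lipid phosphatase-related family, and Tceal1, an X-linked protein related to elongation factor A, were higher by 0.33 and 0.23. Each of these 19 genes kept its sign and an unadjusted p under 0.05 without NIC 2, from 5.959e-05 for LOC100911730 to 0.003093 for Pkdcc.

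**Figure D2:**
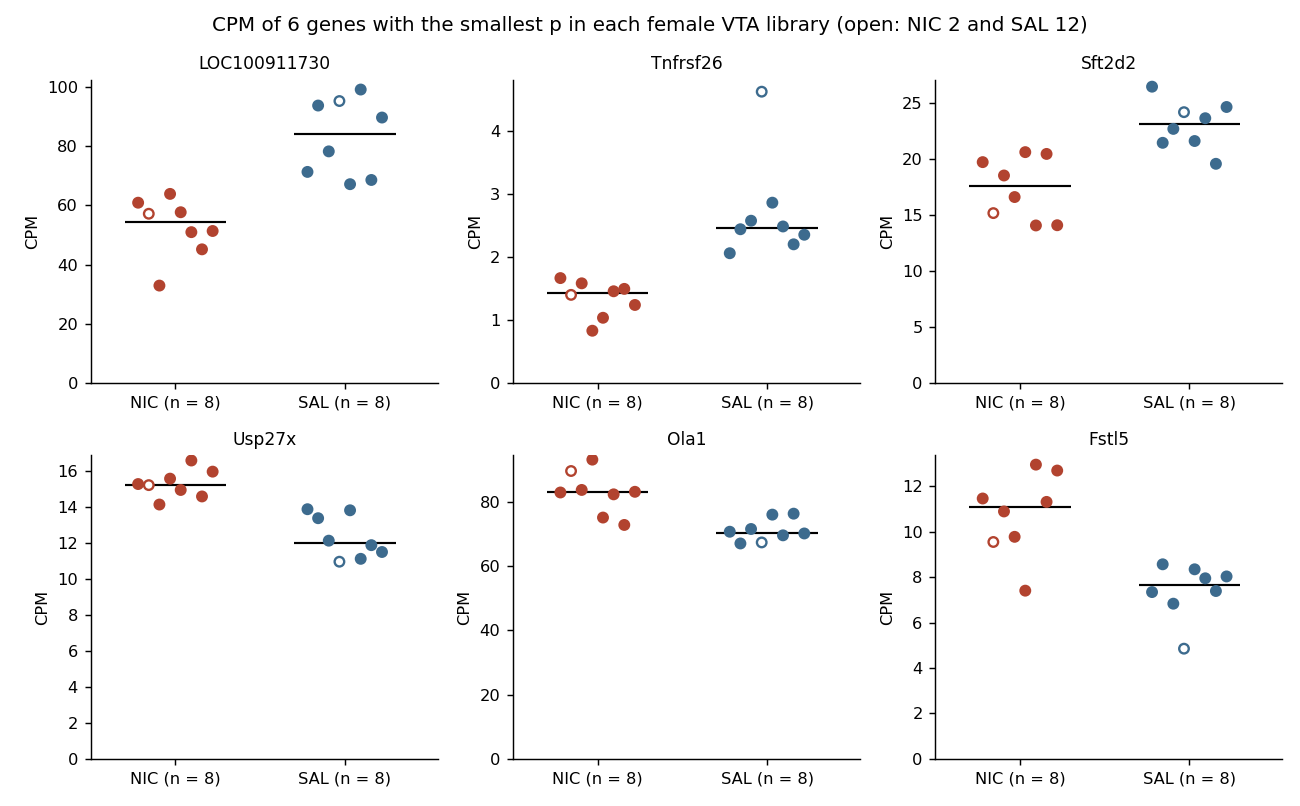
CPM of 3 genes lower and 3 genes higher in NIC with the smallest p (y axes, CPM), 1 point per library, with a line at the median and open points for NIC 2 and SAL 12. NIC and SAL do not overlap for LOC100911730, Tnfrsf26 and Usp27x, and overlap for Sft2d2, Ola1 and Fstl5.

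Each of the 19 also stayed under 0.05 when any 1 of the 16 libraries was left out. In the fit with prep batch, 9 of these 19 genes had an unadjusted p under 0.05 and all 19 kept their sign. LOC100911730 had a log2 fold change of -0.99 there (unadjusted p = 9.505e-05). Tceal1 (0.28, unadjusted p = 0.00592), Gsap (-0.78), Ola1 (0.19), Fstl5 (0.52), Tnfrsf26 (-0.73), Nop56 (0.20), Sft2d2 (-0.40) and Sts (-0.20) were the others. Usp27x had a log2 fold change of 0.17 and an unadjusted p of 0.116 with batch.

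Among genes with a symbol, a mean of at least 1 CPM and an unadjusted p under 0.05 with and without NIC 2, the largest differences were those of hypothalamic peptides. Pmch differed by a log2 fold change of 3.70 and Hcrt, the orexin precursor, by 3.69. The median of Pmch was 2.38 CPM in NIC and 2.15 CPM in SAL, that of Hcrt was 0.321 and 0.134 CPM, and the exact permutation test gave p = 0.312 for Pmch and 0.0564 for Hcrt. NIC 7 had 193.1 CPM of Pmch and 11.6 CPM of Hcrt, and without it the log2 fold changes were 1.07 (unadjusted p = 0.0574) and 1.77. Dnah6, an axonemal dynein of cilia, was higher by 1.73 (1.19 without NIC 2) and Tnnt1, a troponin, by 1.73 (0.86 without NIC 2). Dnah6 was highest in NIC 2 and NIC 7, at 11.2 and 8.52 CPM. These libraries also had the highest sums of ependymal genes, 49.85 and 34.37 CPM. Slc5a7, the choline transporter of cholinergic neurons, was higher by 1.29. Slc5a7 was highest in NIC 1 and NIC 8, at 21.9 and 19.8 CPM, the libraries that were also high in glycinergic genes. Without NIC 1, 2 and 8, libraries chosen after seeing the data, its log2 fold change was 0.53 (unadjusted p = 0.151), and the median of 5 cholinergic neuron genes was 0.09, against 1.09 over all 16 libraries. Among genes lower in NIC the largest differences were those of the loci AABR07015081.2 (-1.75), AABR07015057.1 (-1.33) and LOC100910270 (-1.28), of Sh3rf2 (-1.33), and of Cxcl13 (-1.26), a B cell chemokine at 0.156 to 1.28 CPM in NIC and 0.697 to 2.54 CPM in SAL.

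Part of the genes of vessels and of their basement membranes were lower in NIC. Of 39 collagen and laminin chains tested, 16 were lower and none was higher, with a median log2 fold change of -0.37 against 0.02 over all tested genes. The background for lower genes is 5.20% over all tested genes and 9.89% over the 7916 tested genes that have a symbol here, from which these lists were drawn (17.6% for both directions). Lamc3 was at 7.59 to 15.3 CPM in NIC (median 12.7) and 15.2 to 24.1 CPM in SAL (median 16.3), that is, -0.58 on the log2 scale with an SE of 0.144. Only the highest NIC value reached into the SAL range. Lama4, of vascular basement membranes, was at 12.1 to 18.1 CPM in NIC and 16.5 to 29.3 CPM in SAL, a log2 fold change of -0.44, and Lamb2 was lower by a log2 fold change of -0.58. Col18a1 (-0.63), Lama5 (-0.57) and Col4a1 (-0.33), chains of the same membranes, were lower too. With 1 library left out, the number of lower chains ran from 10 without NIC 6 to 21 without SAL 15.

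Endothelial genes, which mark the inner lining of vessels, were lower for 5 of 9. Vwf, the clotting glycoprotein von Willebrand factor, was at 73.7 to 156.1 CPM in NIC (median 110.9) and 114.9 to 282.0 CPM in SAL (median 142.7), a log2 fold change of -0.59. Its 3 lowest libraries were NIC 2, 6 and 8 and its highest was SAL 12. Egfl7 (-0.32), Esam (-0.34), Tek (-0.26), an angiopoietin receptor, and Cldn5 (-0.22), a tight junction protein of the blood-brain barrier, were also lower, whereas the glucose transporter gene Slc2a1 had a log2 fold change of -0.11 (unadjusted p = 0.186). Of 5 mural genes, which mark pericytes and smooth muscle, 3 were lower. Pdgfrb, the pericyte receptor for platelet-derived growth factor, was at 55.9 to 92.8 CPM in NIC and 77.1 to 151.5 CPM in SAL, a log2 fold change of -0.40, and the contractile genes Myh11 and Tagln had log2 fold changes of -0.97 and -0.99. Without SAL 12 these were -0.76 and -0.79, with unadjusted p of 0.0823 and 0.0866, and Cldn5 was at -0.14 (unadjusted p = 0.0623). With 1 library left out, 1 (without NIC 4, NIC 8, SAL 11, SAL 12 or SAL 14) to 4 (without NIC 3) mural genes were lower.

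Meningeal fibroblast genes had the most negative median of these groups, -0.75, but only Lum (-0.69) and Col3a1 (-0.91) of 12 were under 0.05. Both were above 0.05 without SAL 12, at -0.59 and -0.75, and 0 of the 12 genes were under 0.05 without NIC 6 and 9 of 12 without NIC 3. Col1a2, a chain of fibrillar collagen, ran from 16.3 to 247.9 CPM in NIC and from 124.6 to 365.4 CPM in SAL, and its log2 fold change of -0.90 had an unadjusted p of 0.0555. NIC 6, 2 and 8 held its 3 lowest values, 16.3, 24.7 and 44.5 CPM. Of 4 perivascular macrophage genes, F13a1 (-0.73) and Lyve1 (-0.66), a hyaluronan receptor, were lower. With prep batch and with the meningeal marker level as a covariate 0 of the 4 were lower, with medians of -0.28 and -0.12.

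Antigen presentation genes included lower ones as well. Of 11 genes of the interferon response and the major histocompatibility complex (MHC), 7 were lower and none was higher, with a median log2 fold change of -0.50. Cd74, the invariant chain of MHC class II, was at 16.5 to 64.9 CPM in NIC (median 44.4) and 47.4 to 102.1 CPM in SAL (median 61.9), a log2 fold change of -0.76. The NIC libraries below 25 CPM were again NIC 2, 6 and 8, and 6 of 8 NIC libraries lay below every SAL library. The class II chains RT1-Ba (-0.75), RT1-Bb (-0.78), RT1-Db1 (-0.87) and RT1-Da (-0.80), for which reads of near-identical family members can be split between genes, were lower, and so were Psmb8 (-0.50), an immunoproteasome subunit, and Irf7 (-0.44), an interferon regulatory factor. RT1-Da was above 0.05 in 8 of the 16 fits that leave out 1 library and RT1-Db1 in 1. The interferon-induced genes Isg15 (-0.31, unadjusted p = 0.188) and Mx1 (0.03, unadjusted p = 0.940) were not under the threshold. C4a, a complement component with a near-identical copy, was at 12.6 to 37.7 CPM in NIC and 32.1 to 72.9 CPM in SAL, that is, -0.84 on the log2 scale with an SE of 0.225.

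The vascular, matrix and immune differences were smaller once the meningeal marker level was in the fit. With the mean log2 CPM of the meningeal genes as a covariate, an alternative chosen after seeing the data, 447 genes (2.65%) were under an unadjusted p of 0.05 and 291 of the 1559 genes were among them. The number of lower genes was then 3 of 39 collagens and laminins, and 0 of 9 endothelial, 0 of 5 mural and 0 of 11 interferon and MHC genes. The background for lower genes with a symbol is 1.33% in this fit, and the medians of these lists were -0.09, -0.13, -0.14 and -0.27. Col1a1, Col1a2 and Col3a1 stand both in the covariate and in the collagen list. With prep batch as a covariate the same 4 lists had 1, 0, 0 and 0 lower genes (background 0.745%) and medians of -0.18, -0.11, -0.16 and -0.46. Without NIC 2 they had 14, 4, 2 and 5 lower genes (background 7.52%).

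**Figure D3:**
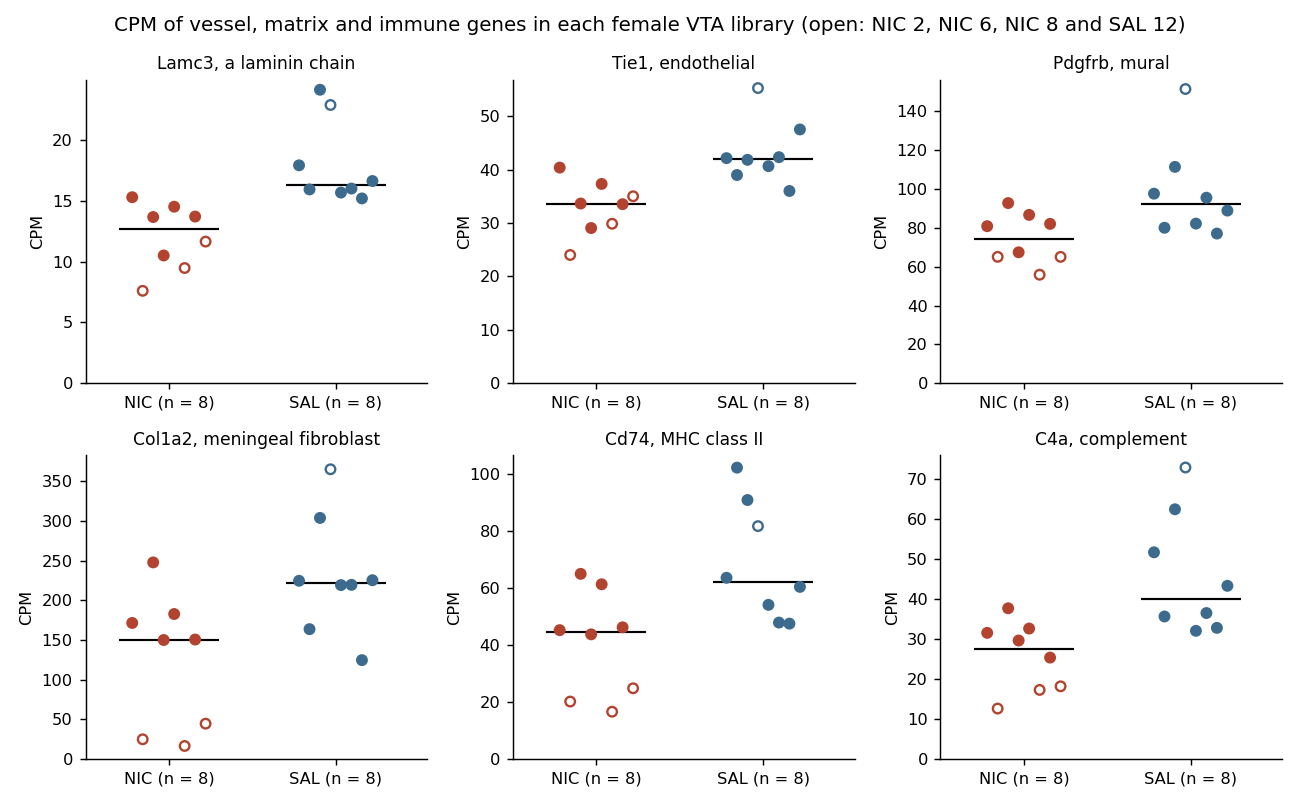
CPM of vessel, matrix and immune genes in each female VTA library (y axes, CPM), with a line at the median and open points for NIC 2, NIC 6, NIC 8 and SAL 12. The 3 open NIC points are the lowest of all 16 libraries for Col1a2, Cd74 and C4a, and SAL 12 is the highest for Tie1, Pdgfrb, Col1a2 and C4a.

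Dopamine neuron genes were not under the threshold in the comparison of 16 libraries. All 9 that were tested had a negative log2 fold change, with a median of -0.37, and the smallest unadjusted p in edgeR's test, 0.153, was that of Drd2 (-0.37), the dopamine autoreceptor. The exact permutation test gave p = 0.111 for Drd2 and 0.159 for Th. Th had a log2 fold change of -0.38 (SE 0.435) and Slc6a3 of -0.44 (SE 0.421), and without NIC 2 these were -0.20 and -0.25. NIC 2 was singled out by its low Th and Slc6a3, so smaller differences of these genes without it follow from that choice. The median of the list was -0.20 without NIC 2 and -0.03 without NIC 1, 2 and 8, a set of libraries chosen after seeing the data. For Th the NIC and SAL ranges overlapped apart from NIC 1, 2 and 7. With prep batch as a covariate and without NIC 2, 5 of the 9 genes were lower (background 1.21% of named genes), with a median of -0.54 over the list, against 0 of 9 and the same median with NIC 2 kept. NIC 2 carries no weight for the treatment effect in this fit, so leaving it out took away only spread in genes on which it was singled out, and the 5 calls are a description. In that fit Pitx3 (-0.61) and Foxa2 (-0.58), transcription factors of these neurons, and Ret (-0.45), a receptor for the glial cell line-derived neurotrophic factor family, were lower. Drd2 differed by -0.54 (unadjusted p = 0.0260 in edgeR's test, adjusted p = 1), Slc6a3 by -0.56 (unadjusted p = 0.0251) and Th by -0.55 (unadjusted p = 0.0562). With the covariate and NIC 2 kept, the values were -0.54, -0.56 and -0.55 with unadjusted p of 0.110, 0.372 and 0.397.

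Of the nicotinic receptor subunits, 4 were named here and tested, and none was under the threshold. Chrnb2, the partner of the high-affinity receptor, was at 15.6 to 29.6 CPM in NIC and 17.1 to 25.6 CPM in SAL, a log2 fold change of 0.07. Chrna3 was at 43.1 CPM in NIC 2 and at no more than 12.3 CPM in any other library, and its log2 fold change of 0.44 became -0.22 without NIC 2 and -0.54 (unadjusted p = 0.00981) with prep batch as a covariate and without NIC 2. With batch and NIC 2 kept, 0 of the 4 subunits were under the threshold. NIC 2 carries no weight for the treatment effect in that fit, so leaving it out took away only spread in Chrna3. Other subunits of the dopamine neuron receptor were not named here. Among 6 genes whose products modulate or fold these receptors, Lypd6, a membrane-anchored modulator, was higher by 0.57 on the log2 scale, at 6.50 to 23.5 CPM in NIC and 6.31 to 12.9 CPM in SAL. Lypd6 was above every SAL library in 5 of 8 NIC libraries and had an unadjusted p of 0.00509 with prep batch as a covariate. Its highest value was that of NIC 2, and without NIC 2 its log2 fold change was 0.43 (unadjusted p = 0.034). With the meningeal marker level as a covariate 0 of the 6 genes were higher.

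Neuropeptide genes included 4 of 16 that were higher and none that was lower (background 4.04% for higher genes over all tested genes and 7.68% over those with a symbol). Sst, somatostatin, a peptide of inhibitory neurons, was at 35.2 to 73.9 CPM in NIC (median 56.0) and 17.8 to 50.3 CPM in SAL (median 32.3), a log2 fold change of 0.56 with an SE of 0.204. Each NIC library lay above the SAL median, and 5 above every SAL library. Sst differed by 0.91 (unadjusted p = 0.00749) with prep batch as a covariate. Oprl1, the nociceptin receptor, was higher by 0.26, Nts, neurotensin, by 0.54, and Tac1, the substance P precursor, by 0.54. Without NIC 2 the log2 fold change of Nts was 0.32, and without NIC 7 that of Tac1 was 0.35 (unadjusted p = 0.137). Tac1 was above 0.05 in 11 of the 16 fits that leave out 1 library. With batch, the unadjusted p of these 3 genes was 0.0644 for Oprl1, 0.932 for Nts and 0.202 for Tac1. With the meningeal marker level as a covariate 0 of the 16 genes were higher, and Sst differed by 0.50 (unadjusted p = 0.0529) and Nts by 0.25 (unadjusted p = 0.280). The opioid precursors Pnoc (0.29) and Pdyn (0.35) and the stress peptide gene Crh (-0.07) were not under the threshold.

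Few genes of transmission and excitability were under the threshold, beside a background of 7.68% for higher genes with a symbol. All 11 GABA and glycine receptor genes had positive log2 fold changes (median 0.16), and 2 were higher, Glra2 (0.36), a glycine receptor subunit at 17.7 to 27.3 CPM in NIC and 12.3 to 22.4 CPM in SAL, and Gabre (0.43). The median of the GABA and glycine receptor genes was 0.01 with prep batch and 0.03 with the meningeal marker level as a covariate. Of 17 synaptic vesicle genes (median 0.13, and 0.03 and 0.0060 with these covariates) 3 were higher, Syp (0.15), the vesicle protein synaptophysin, Rab3c (0.45) and Syn2 (0.25). Scn8a (0.38) and Scn2b (0.25) of 9 sodium channel genes, Gria1 (0.62) of 11 ionotropic glutamate receptor genes, Chrm3 (0.42) of 4 muscarinic receptors and Cacna1b (0.17) of 19 calcium channel genes were higher, and none of 21 potassium channel genes was. Gria1 was at 124.5 CPM in NIC 2 and at 30.4 CPM or more in all NIC libraries, and without NIC 2 its log2 fold change was 0.27 (unadjusted p = 0.108). Without NIC 2, Chrm3 was at 0.22 and Scn8a at 0.25, both above 0.05, and without NIC 7 Cacna1b was at 0.11 (unadjusted p = 0.125). The number of higher GABA and glycine receptor genes ran from 1 (without NIC 1 or NIC 8) to 5 (without NIC 3), and that of synaptic vesicle genes from 1 (without NIC 8) to 4 (without NIC 3, SAL 10 or SAL 15). Gabre, Syn2 and Scn2b were above 0.05 in 3, 10 and 10 of the 16 fits that leave out 1 library.

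Prkaca, a catalytic subunit of the cyclic AMP-dependent protein kinase, was higher by 0.11 on the log2 scale. It was 1 of 2 higher among 11 plasticity kinase and phosphatase genes (background 7.68% of named genes). With prep batch or the meningeal marker level as a covariate 0 of the 11 were higher. Ywhae and Ywhaz, 2 of 6 tested 14-3-3 adaptor proteins, were higher, beside the same background of 7.68%. Ywhae was at 872.6 to 1006 CPM in NIC (median 907.9) and 834.1 to 866.7 CPM in SAL (median 842.1). The log2 fold change of Ywhae was 0.14 with an SE of 0.0371. Its groups did not overlap, which fixes its exact permutation p at 0.0001554, the smallest possible. Without NIC 2 its log2 fold change was 0.12, and that of Ywhaz was 0.09 (unadjusted p = 0.0605). Ywhae was thus higher by a small amount in each of the 8 NIC libraries. Ywhae had an unadjusted p of 0.0694 with prep batch as a covariate.

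Some proteasome genes were higher and some ribosomal protein genes lower in NIC, by small amounts. All 27 proteasome subunits of the list had positive log2 fold changes, with a median of 0.09, and 8 were higher in NIC. The list leaves out the immunoproteasome gene Psmb8 named above, which was lower (-0.50). Among named genes the background was 7.68% for higher and 9.89% for lower genes. Psmc6, an ATPase of the regulatory particle, was at 92.1 to 107.2 CPM in NIC (median 101.7) and 85.3 to 97.4 CPM in SAL (median 90.0), that is, 0.15 on the log2 scale with an SE of 0.0412. For Psmc6, 6 NIC libraries lay above every SAL library. Psmd6 (0.19) and Psmc2 (0.18) had the largest differences of the 8. Of 34 cytosolic ribosomal proteins, 17 were lower and none was higher, with a median of -0.11. Rps28 was at 89.1 to 108.6 CPM in NIC (median 98.8) and 103.7 to 118.9 CPM in SAL (median 110.6), that is, -0.17 on the log2 scale with an SE of 0.0474. Rplp0 (-0.16) and Rpl34 (-0.12) were lower in all 8 NIC libraries than the SAL median. Ribosomal protein genes have many near-identical copies, so their counts are uncertain. With 1 library left out, 5 (without NIC 4) to 10 (without NIC 7) proteasome genes were higher and 11 (without SAL 14) to 20 (without NIC 3) ribosomal protein genes were lower.

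With prep batch as a covariate, 0 proteasome genes were higher (background 1.47% of named genes) and 2 ribosomal protein genes were lower, with medians of 0.08 and -0.04. With the meningeal marker level as a covariate 6 proteasome genes were higher (background 2.54%) and 3 ribosomal protein genes lower. Of 45 respiratory chain and ATP synthase genes, 2 were higher and 1 was lower in the comparison of 16 libraries, with a median of 0.05. Neither count was above its background among named genes, 7.68% for higher and 9.89% for lower genes. The number higher ran from 1 (without NIC 3, NIC 4, SAL 13, SAL 15 or SAL 16) to 8 (without NIC 7) when 1 library was left out, and the median from 0.0095 to 0.08.

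Glial genes were counted against backgrounds of 9.89% lower and 7.68% higher among named genes. Of 7 astrocyte genes, Gfap, the filament protein of reactive astrocytes, was lower (-0.42), at 865.5 to 2304 CPM in NIC and 1806 to 2750 CPM in SAL, and Slc1a2, the main glutamate transporter, was higher (0.26). NIC 2 had the lowest Gfap, and without it the log2 fold change was -0.32 (unadjusted p = 0.0104). Csf1r, the microglial growth factor receptor, was lower by a log2 fold change of -0.21, 1 of 8 microglial genes. Among oligodendrocyte precursor genes 3 of 6 were lower, Cspg4 (-0.29), Bmp4 (-0.22) and Pdgfra (-0.23), and of 12 oligodendrocyte genes none was under 0.05. With 1 library left out, 2 or 3 oligodendrocyte precursor genes and 1 to 4 astrocyte genes, the most without NIC 3, were lower. Of the oligodendrocyte precursor genes 1 was lower with prep batch and 0 with the meningeal marker level as a covariate, and with the latter the astrocyte median went from -0.22 to 0.03. None of the 4 immediate early genes, which report recent activity, and none of the 9 clock genes was under the threshold. Of 8 protein folding stress genes 1 was lower, the small heat shock protein gene Hspb1 (-0.51), and 6 of the 8 had positive log2 fold changes (median 0.07). Of 7 glucocorticoid-responsive genes 1 was lower, the metallothionein gene Mt1 (-0.38), with a median of -0.15. Gper1 (-0.49), a membrane estrogen receptor, was lower, 1 of 3 sex steroid and pituitary hormone receptor genes. Mt1, Gper1 and Pdgfra were above 0.05 in 9, 6 and 6 of the 16 fits that leave out 1 library.

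**Figure D4:**
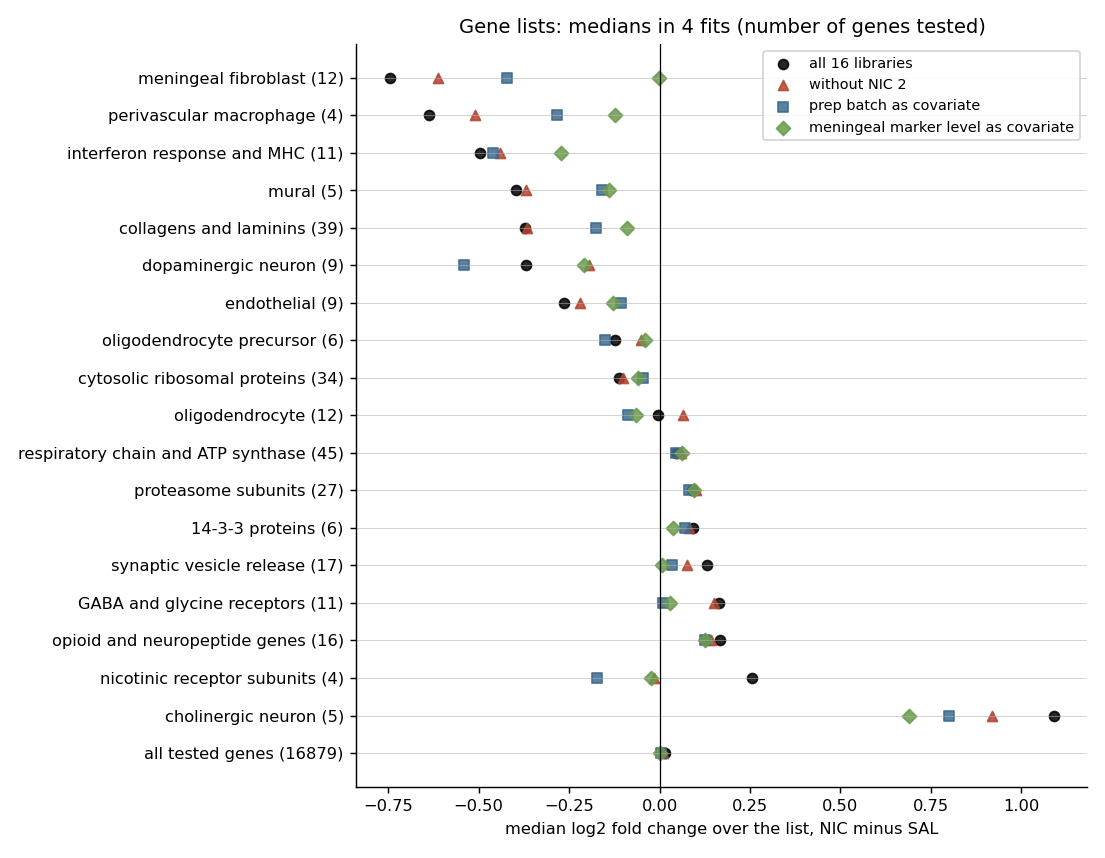
Median log2 fold change (x axis, NIC minus SAL) of each gene list in the comparison of 16 libraries, without NIC 2, with prep batch as a covariate and with the meningeal marker level as a covariate; the number of tested genes stands beside each list. The meningeal list runs from -0.75 over all libraries to -0.42 with batch and is near 0 with its own level as the covariate, the proteasome list stays near 0.09, and all tested genes are at 0.02.

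In the same rats, the NIC difference in VTA was set against the mean NIC difference in NAc core and shell, over 47 female libraries with NAc core NIC 1 left out. In edgeR's quasi-likelihood test 1555 genes (9.21%) had an unadjusted p under 0.05, and 0 passed an adjusted p under 0.05. Since 3 libraries come from each rat, the animal was also entered as a block. With this replicate block 1826 genes (10.8%) were under 0.05, 907 with a higher and 919 with a lower difference in VTA, and the lowest edgeR adjusted p was 0.234, for Myt1, a transcription factor of neural progenitors. With the block but without VTA NIC 2, 1212 genes were under 0.05.

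Meningeal, matrix and immune genes were among those that differed between VTA and NAc, the first 2 groups in larger number with the block. With the animal block, 11 of 12 meningeal genes had a more negative difference in VTA (3 without the block), against a background of 9.41% of named genes (7.33% without the block), as did 19 of 39 collagens and laminins (11 without the block), with 2 in the opposite direction (background 8.60%), and 6 of 11 interferon and MHC genes (5 without the block). The median log2 fold changes in NAc core and shell were 0.10 and -0.26 for the meningeal genes, -0.02 and -0.12 for collagens and laminins, and 0.05 and -0.08 for interferon and MHC genes. Cd74 differed by -0.82 on the log2 scale between VTA and NAc (SE 0.235, unadjusted p = 0.0014) and Tie1 by -0.40 (SE 0.102). Of neuropeptide genes, Sst differed by 0.70 (unadjusted p = 0.000945) and Tac1 by 0.86. For ribosomal proteins 0 of 34 genes and for proteasome subunits 3 of 27 differed between VTA and NAc. These list counts include VTA NIC 2, which was low in meningeal genes, and were not taken without it.

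Taking the threshold in the comparison of 16 libraries, without NIC 2, with prep batch and in the paired contrast of VTA with NAc together, 53 genes were under 0.05 with 1 sign in all 4, 31 higher and 22 lower. These settings share libraries, so they are not independent. The 5 named genes of smallest p among them were Tnfrsf26, Ola1, Sft2d2, Fstl5 and Nop56. For Fstl5 the log2 fold changes of 0.54 and 0.56 with and without NIC 2 stood beside 0.52 with prep batch.

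The NIC difference in female VTA was also set against that in male VTA, over 31 libraries. Prep batch L holds VTA libraries of both sexes, female NIC 3 and SAL 13 and 14 and 2 male NIC libraries but no male SAL library, and every other batch holds VTA of 1 sex, so no single batch gives the comparison. In edgeR's quasi-likelihood test 1853 genes (11.0%) were under an unadjusted p of 0.05, 799 with a higher and 1054 with a lower difference in females, and 0 passed an adjusted p under 0.05. Without female VTA NIC 2, 1727 genes were under 0.05. The lowest edgeR adjusted p was 0.116, for Jazf1, whose log2 fold change was 0.42 in females and -0.36 in males. Jazf1 was at 5.54 to 7.90 CPM in female NIC and 4.30 to 5.84 CPM in female SAL. With prep batch as a covariate, an alternative chosen after seeing the data, 462 genes (2.74%) were under an unadjusted p of 0.05, 277 with a higher and 185 with a lower difference in females, and 0 passed an adjusted p under 0.05 in edgeR's test. Jazf1 then differed between the sexes by 0.44 (SE 0.227, unadjusted p = 0.0669).

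Of 34 ribosomal proteins 23 had a lower difference in females than in males (background 10.7% of named genes), with own medians of -0.11 and 0.08. Collagens and laminins had 20 of 39, with own medians of -0.37 and 0.16, and interferon and MHC genes had 6 of 11. Meningeal fibroblast genes had 7 of 12, perivascular macrophage genes 4 of 4 and mural genes 4 of 5. With prep batch as a covariate these 3 lists had 0, 1 and 0. Of 27 proteasome subunits 5 had a higher difference in females (background 8.20%). These list counts include female NIC 2 and were not taken without it. Slc1a2 differed by 0.61 between the sexes (unadjusted p = 0.000212), with 0.26 in females and -0.33 in males, and Slc5a7 by 1.98, with 1.29 and -0.68. Slc1a2 differed by 0.45 (unadjusted p = 0.131) and Slc5a7 by 1.37 (unadjusted p = 0.211) with prep batch as a covariate. In that fit 0 of 34 ribosomal proteins, 3 of 39 collagens and laminins and 0 of 11 interferon and MHC genes had a lower difference in females (background 1.39% of named genes), and 6 of 27 proteasome subunits and 10 of 45 respiratory chain and ATP synthase genes had a higher one (background 2.02%). Without the covariate, 1 of these 45 genes had a higher and 1 a lower difference in females. In male VTA 949 genes (5.62%) were under 0.05, in female NAc core 1088 (6.45%) and in female NAc shell 1709 (10.1%).

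**Figure D5:**
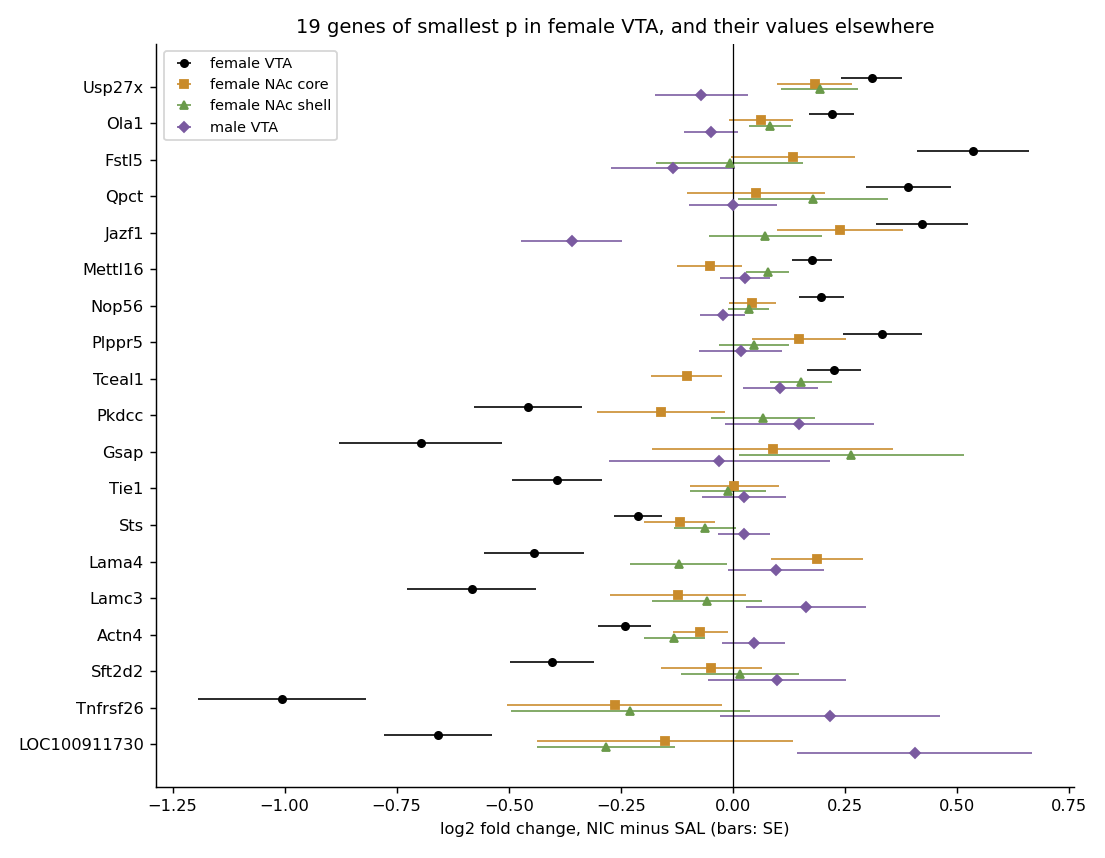
Log2 fold change with its SE (x axis, NIC minus SAL) for 19 genes of smallest p in female VTA, beside the values of the same genes in female NAc core, female NAc shell and male VTA. Female VTA values run from -1.01 for Tnfrsf26 to 0.54 for Fstl5, and for Jazf1 the male value is -0.36.

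A few genes passed an adjusted p under 0.05 only when the test was changed. With DESeq2, 4 genes did, LOC100911730 (adjusted p = 0.00127), Tnfrsf26 (adjusted p = 0.00634), Usp27x (adjusted p = 0.0499) and ENSRNOG00000059412, which was listed at 0 in all SAL libraries and in 5 NIC libraries and at 13.2, 9.38 and 7.02 CPM in NIC 2, 5 and 6. With all 12 groups of the series in 1 edgeR fit, 6 genes did: Pmch, Sspo, Wipf3, C4a, Ehd4 and Hcrt. Pmch and Hcrt were highest in NIC 7 and Sspo and Wipf3 in NIC 2, and the fit of 12 groups was not repeated without these libraries. In the comparison of 16 libraries the log2 fold changes of Sspo and Wipf3 were -0.32 and -0.0066 without NIC 2, which had 68.9 CPM of Sspo against at most 2.28 CPM in any other library. C4a (-0.84, edgeR adjusted p = 0.0409 with 12 groups) and Ehd4 (-0.35), an endocytic recycling protein at 27.6 to 51.2 CPM in NIC and 43.0 to 61.5 CPM in SAL, were lower without NIC 2 too, at -0.74 and -0.28.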

How the data were processed

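The authors trimmed paired-end reads with fastp 0.20.0, quantified them with Salmon 0.12.0 on the rat build Rnor version 6 and collapsed transcripts with tximport. What they deposited are estimated counts of genes in each library, rounded to whole numbers and not normalized (versions from the submitters' processing notes; how the estimates became whole numbers is not given in the sources used here). These counts were used as they stand. The files hold Ensembl gene identifiers; symbols were taken from identity columns of the study's supplementary tables, which give a symbol for 7917 of 17637 genes. Those tables mostly list genes that differed in some comparison, so named genes are no random subset: at an unadjusted p under 0.05, 17.6% of named and 9.24% of all tested genes passed.

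The tested genes, 16879 in all, have more than 10 normalized counts in 3 or more of 94 libraries (NAc core NIC 1 and a repeat library of male VTA SAL 5 were left out of the filter). Fits used R 4.3.3, edgeR 4.0.16 (TMM, quasi-likelihood test, Benjamini-Hochberg adjustment, no covariate), with limma 3.58.1, DESeq2 1.42.0 and sva 3.50.0 for alternatives, and figures Python 3.11.15. The fitting code was tested on simulated data. Exact permutation tests were two-sided, on log2 CPM with a prior count of 2, over all 12870 assignments of the rats. The libraries are separate rats by the labels, and no 2 of them agreed within sampling noise.

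The members and gene lists were chosen with earlier results of these data known. The text names the 10 higher and 10 lower genes of smallest p with a symbol, a mean of at least 1 CPM and the same sign without NIC 2, the 5 of largest change in each direction that passed p under 0.05 with and without NIC 2, list members (up to 6 of smallest p per list, and any member of the dopamine and nicotinic receptor lists), genes with an adjusted p under 0.05 in any alternative, and the 5 of smallest p under 4 settings; 1 gene of smallest p and 1 list member are not reported here, and other members were chosen for the text after their values had been seen, as were single libraries.

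VTA and NAc libraries with the same number come from the same rat by the labels; the correlation of their deviations from the group means over 6364 genes had a median of 0.13 with NAc core (15 pairs, 8 of them over 0.1) and 0.0545 with NAc shell (16 pairs, 7 over 0.1), against -0.0267 and -0.0058 for other rats. NIC and SAL share no replicate number, so they were not paired. Alternatives were the scaling, the filter, the test, prep batch, 1 surrogate variable, dopaminergic and meningeal marker covariates, and left-out libraries.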

Additional observations from a re-analysis of the deposited data

Results flagged for a closer look

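In each group of 8 libraries, the distance of the highest or lowest library to its nearest neighbor was compared with the group's range, for 50 marker and pathway list sums and 48 genes, 196 groups in all. Of these, 28 held a library that stood apart by Dixon's criterion; chance alone picks about 1 in 20 groups. Of the 28, 14 concerned NIC 2, 6 SAL 12 and 3 NIC 7, and none was weighed for a cause.

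In NIC 2, the list sums that stood apart were those of thalamic (240.8 CPM), cortical and hippocampal (1407 CPM), choroid plexus (2758 CPM), nicotinic receptor (75.7 CPM), muscarinic receptor (102.6 CPM), ionotropic glutamate receptor (1016 CPM), metabotropic glutamate receptor (149.4 CPM) and plasticity kinase genes (2779 CPM). The next NIC library was at 104.0, 583.5, 121.2, 45.9, 57.9, 599.7, 122.8 and 1894 CPM in the same order. Single genes that stood apart in NIC 2 were Plppr5 (24.7 CPM), Tnnt1 (23.0 CPM), Sspo (68.9 CPM), the spondin of the subcommissural organ, Wipf3 (388.3 CPM), Chrnb4 (10.1 CPM) and Chrna3 (43.1 CPM). Each was the highest NIC value of its gene.

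NIC 7 was highest in the hypothalamic list (209.0 CPM, next 29.8 CPM), in Pmch (193.1 CPM) and in Hcrt (11.6 CPM, next 1.25 CPM). NIC 6 was highest in Qpct, at 20.2 CPM against 16.7 CPM in the next NIC library.

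In the SAL group, SAL 12 stood apart in thalamic genes (248.4 CPM, next 101.1 CPM), red blood cell genes (783.4 CPM, next 512.1 CPM), Tnfrsf26 (4.62 CPM), Actn4 (255.7 CPM) and Pkdcc (38.8 CPM), where it was highest, and in Fstl5 (4.85 CPM), where it was lowest. These 4 genes are among the 19 named above for the smallest p, and their groups differ in the same direction as SAL 12 differs from the other SAL libraries. SAL 16 was highest in choroid plexus genes (957.9 CPM, next 28.5 CPM) and in red nucleus and interpeduncular genes (15.3 CPM, next 9.24 CPM), SAL 14 in Dnah6 (2.73 CPM, next 1.05 CPM) and SAL 15 in AABR07015081.2 (18.1 CPM, next 8.39 CPM). No gene differed between VTA and NAc or between the sexes at an adjusted p under 0.05 in edgeR's quasi-likelihood test.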

How the results depend on the processing

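The count of 1559 genes at an unadjusted p under 0.05 stayed within 1.5 times under other scaling, filters and tests (1345 to 1990), and ran from 1115 (without SAL 12) to 2071 (without NIC 3) when 1 library was left out, with 0 to 0 genes at an adjusted p under 0.05. It was 357 in prep batches J and L alone, 295 with prep batch as a covariate, 422 with batch and without NIC 2, and 447 with the meningeal marker level as a covariate, the last and the fit without NIC 1, 2 and 8 (1065) having been added after seeing the data. The count at an adjusted p under 0.05 was 0 in edgeR, 4 in DESeq2 and 6 with 12 groups in 1 fit. The paired analysis with the animal as replicate block gave 1826 genes for VTA against NAc and 1212 without VTA NIC 2. Without the block the counts were 1555 and, without VTA NIC 2, 971; limma with the animal as a random block gave 1871, and adding NAc core NIC 1 gave 1774. For female against male VTA the count of 1853 was 462 with prep batch as a covariate, which was also added after seeing the data. Over the 273 genes that the naming rule and the lists chose, and counting those under an unadjusted p of 0.05 before or after the change of setting, signs turned, as log2 fold changes, for Sspo (-0.32 without NIC 2, -0.31 in DESeq2, -0.11 in weighted limma, -0.64 with the dopaminergic covariate, -0.37 without NIC 1, 2 and 8, -0.32 with the meningeal covariate), Wipf3 (-0.0066 without NIC 2, -0.017 in DESeq2 and -0.076 with the dopaminergic covariate), Chrna3 (0.44 over all libraries, -0.55 in batches J and L, -0.54 with batch and without NIC 2) and Ttr (-5.67 with 1 surrogate variable, -4.08 with the dopaminergic covariate). Turns with both values above 0.05 are not listed, such as Chrna3 (-0.22) and Ttr (-2.87) without NIC 2. With 1 library left out Sspo ran from -0.32 to 2.92 and Wipf3 from -0.0066 to 1.87, each lowest without NIC 2; the cause of the other turns was not tested. Of the 273 genes, 101 were under an unadjusted p of 0.05 and had a value with prep batch, and 85 of these were above 0.05 there. List medians moved by more than the spread between rats in 35 of 1500 cases. Only 3 NIC and 4 SAL libraries share prep batches, which limits every value with batch.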
